A study of Homo sapiens with 10 samples.

Results

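Exon arrays such as the GeneChip Exon 1.0 ST summarise many probes into 1 value for each transcript cluster, the probes that cover the exons of a stretch of genome, and the platform annotation of many clusters lists more than 1 gene. The rows described here are those whose annotation lists 2 or more gene symbols separated by semicolons, without 2 clusters that were set aside by the same rule (those of GDF15 with MIR3189 and of SQSTM1 with MRNIP). There were 2404 such rows among the 22011 of the table, beside 14434 rows with 1 symbol and 5171 that are unnamed in the annotation used here. Of the 2404, 1943 list 2 symbols, 293 list 3, 96 list 4 and 58 list 5 or more, with 15 the most, while the symbols of 14 rows now belong to 1 gene. Symbols of a row are joined here by a slash in the order of the annotation.

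The RNA came from SH-SY5Y, an established human neuroblastoma line with sympathetic, catecholaminergic features that is often used as a neuronal model. There were 5 arrays of untreated cells (ctrl 7, 11, 13, 17 and 19) and 5 of cells treated with paraquat (paraquat 8, 12, 14, 18 and 20), numbered as in the sample titles. Every array carried total RNA depleted of ribosomal RNA, and no genetic change other than those of the line is named in the labels. Paraquat is a herbicide that accepts and passes on electrons inside cells and so generates superoxide, and the labels give its dose and duration only by citing an earlier paper, which was not used here. Nothing in the labels says that arrays come from separate cultures, so the p-values take in only array-to-array spread, possibly of technical origin.

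Rows with several symbols arise where genes overlap on the same or opposite strands, where a small RNA lies inside a longer gene, where neighbouring genes share annotated transcripts, or where gene copies and pseudogenes share sequence. In such a row the probes do not assign the signal to a single gene. MicroRNAs are cut from longer primary transcripts, and the seed, bases 2 to 8 of the mature strand, guides their pairing with target mRNAs. A row that lists a microRNA does not measure the mature strand. Where the microRNA lies within the gene of the row, it measures exons of the longer transcript. Whether every listed microRNA does so was not checked.

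Some rows list microRNAs that share a seed although their genes lie on different chromosomes, and their mature sequences are given first because the changes of these rows are set side by side later. The sequences and positions are from RefSeq (GRCh38.p14), 5′ to 3′, with the seed in capitals. The rows AEN/MIR7-2 and HNRNPK/MIR7-1 list microRNAs whose 3p strands share a seed, and SLIT3/MIR218-2 and SLIT2/MIR218-1 list the same mature strand. For MIR7-2 the sequences used held only the 3p strand, so its 5p strand was not compared.
hsa-miR-7-2-3p (chr15:88611896-88611917, plus strand, in MIR7-2): cAACAAAUcccagucuaccuaa
hsa-miR-7-1-3p (chr9:83969771-83969792, minus strand, in MIR7-1): cAACAAAUcacagucugccaua
hsa-miR-218-5p (chr5:168768211-168768231, minus strand, in MIR218-2): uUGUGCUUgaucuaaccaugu
The rows DLEU2/MIR15A/MIR16-1/DLEU2L and SMC4/MIR15B/MIR16-2 share the seed of the miR-15 and miR-16 family, and both list a gene for the same miR-16 strand.
hsa-miR-15a-5p (chr13:50049167-50049188, minus strand, in MIR15A): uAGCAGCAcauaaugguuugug
hsa-miR-15b-5p (chr3:160404607-160404628, plus strand, in MIR15B): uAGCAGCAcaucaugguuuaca
hsa-miR-16-5p (chr13:50049027-50049048, minus strand, in MIR16-1): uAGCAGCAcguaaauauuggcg
The rows CTDSP1/MIR26B, CTDSP2/MIR26A2 and CTDSPL/MIR26A1 share the miR-26 seed.
hsa-miR-26b-5p (chr2:218402657-218402677, plus strand, in MIR26B): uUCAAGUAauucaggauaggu
hsa-miR-26a-5p (chr12:57824658-57824679, minus strand, in MIR26A2): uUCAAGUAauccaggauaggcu
The rows SKA2/MIR301A/SKA2P1 and PPIL2/MIR130B share a further seed, and HUWE1/MIR98/MIRLET7F2 and WDR82/MIRLET7G share the let-7 seed.
hsa-miR-301a-3p (chr17:59151149-59151171, minus strand, in MIR301A): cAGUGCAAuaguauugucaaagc
hsa-miR-130b-3p (chr22:21653354-21653375, plus strand, in MIR130B): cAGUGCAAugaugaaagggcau
hsa-miR-98-5p (chrX:53556299-53556320, minus strand, in MIR98): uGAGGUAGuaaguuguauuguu
hsa-let-7g-5p (chr3:52268336-52268357, minus strand, in MIRLET7G): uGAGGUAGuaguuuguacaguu
The row MCM7/MIR106B/MIR25/MIR93 lists 3 microRNAs that lie within the MCM7 gene, of which the first and last printed here share a seed.
hsa-miR-106b-5p (chr7:100094043-100094063, minus strand, in MIR106B): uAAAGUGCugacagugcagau
hsa-miR-25-3p (chr7:100093571-100093592, minus strand, in MIR25): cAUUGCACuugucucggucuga
hsa-miR-93-5p (chr7:100093815-100093837, minus strand, in MIR93): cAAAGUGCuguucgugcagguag

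Of the 2404 rows, 198 rose and 269 fell with paraquat at a Benjamini-Hochberg adjusted p under 0.05 in limma, 8.24% and 11.2% of them. Over all 22011 rows, 8.51% rose, 11.5% fell and 20.0% were called in either direction, so that the share among rows with several symbols (19.4%) was near that of the table. Their median log2 change was 0.0058 against 0.0047 over all rows. When each array was centred on its median, 253 rows rose and 230 fell, and decreases no longer outnumbered increases. With ctrl 11 and paraquat 12 left out together, 221 rose and 256 fell. Groups did not overlap in 380 of the rows (15.8%, against 16.2% of all rows). Changes of at least 2-fold were seen in 22 of the rows that rose and 45 of those that fell. The same count was not made over all rows, so it is not known whether these rows differ from the table in it. In bulk RNA, fewer cells of a kind and less RNA per cell cannot be told apart.

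Rows with a microRNA symbol (110 rows, 12 rose and 22 fell) and with a snoRNA or scaRNA symbol (84 rows, 14 rose and 11 fell) were called at shares of 30.9% and 29.8%, and rows of family members (484 rows, 30 rose and 31 fell) at 12.6%. The levels of these kinds also differed, with median log2 values of 7.71, 8.88 and 5.09, and the part of the level in these shares was not tested. Among the 846 several-symbol rows that belong to the dimmest 33.3% by mean level, 5.79% were called, against 6.84% of all such rows, and among the 1558 others 26.8%, against 26.5%.

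The row with the largest increase was NQO1/NFAT5. NQO1 is a quinone reductase and a classic target of the oxidant-responsive factor NRF2, and NFAT5 is a transcription factor of osmotic stress. Its log2 values were 8.88, 9.76, 8.80, 9.10 and 8.74 in ctrl 7, 11, 13, 17 and 19, and 10.88, 11.28, 10.97, 10.90 and 11.06 in paraquat 8, 12, 14, 18 and 20; this order of arrays is kept throughout. All paraquat arrays lay above all ctrl arrays, and ctrl 11 was the highest of its group. The change was 1.96 ± 0.18, adjusted p = 2.98e-05 (log2 change ± standard error, limma), which is 3.89-fold. NFAT5 also has a row of its own, in which the change was 0.38 ± 0.13.

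ACTA2/FAS-AS1 followed. ACTA2 encodes smooth muscle actin and FAS-AS1 is an antisense RNA of the death receptor gene FAS. For ACTA2/FAS-AS1, ctrl gave 7.10, 8.16, 7.71, 7.52 and 7.58, and paraquat gave 8.95, 9.87, 9.77, 9.39 and 9.47. The groups did not overlap, and the change was 1.88 ± 0.21, adjusted p = 0.000109. NFKBIZ/NXPE3 lists NFKBIZ, an inducible nuclear regulator of NF-kB target genes. Values for NFKBIZ/NXPE3 were 7.61, 7.90, 7.51, 7.04 and 6.98 without and 9.45, 9.41, 9.40, 8.66 and 8.83 with paraquat. The groups again did not overlap, with a change of 1.74 ± 0.22, adjusted p = 0.000229, while the row of NXPE3 alone changed by -0.06 ± 0.13. In AEN/MIR7-2, which lists the p53-induced nuclease AEN, the arrays of each group lay close together. The ctrl arrays of AEN/MIR7-2 read 8.14, 8.59, 8.15, 8.21 and 8.30 and the paraquat arrays 9.79, 10.01, 10.01, 9.97 and 10.08. The change was 1.69 ± 0.10, adjusted p = 1.69e-06.

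The other 4 of the 8 largest increases were CASP4/CASP4LP (the inflammatory caspase CASP4 with a pseudogene, 1.67 ± 0.22), GLIPR1/KRR1 (1.63 ± 0.28), LIMS1/LIMS3 (adaptors of focal adhesions, 1.61 ± 0.16) and NR4A2/FLJ46875 (1.52 ± 0.14). In GLIPR1/KRR1 the ctrl arrays read 3.71 to 5.19 and lay partly below 4.18, the value under which the dimmest 20% of the table lie, so that its fold change is uncertain. KRR1, a factor of ribosome assembly, had a change of 0.02 ± 0.19 in its own row. NR4A2 is an immediate early nuclear receptor needed for dopaminergic neurons. In NR4A2/FLJ46875 the values were 4.99, 4.92, 4.72, 4.91 and 4.90 in ctrl and 6.31, 6.04, 6.86, 6.41 and 6.39 in paraquat. No array of one group reached those of the other.

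**Figure D1:**
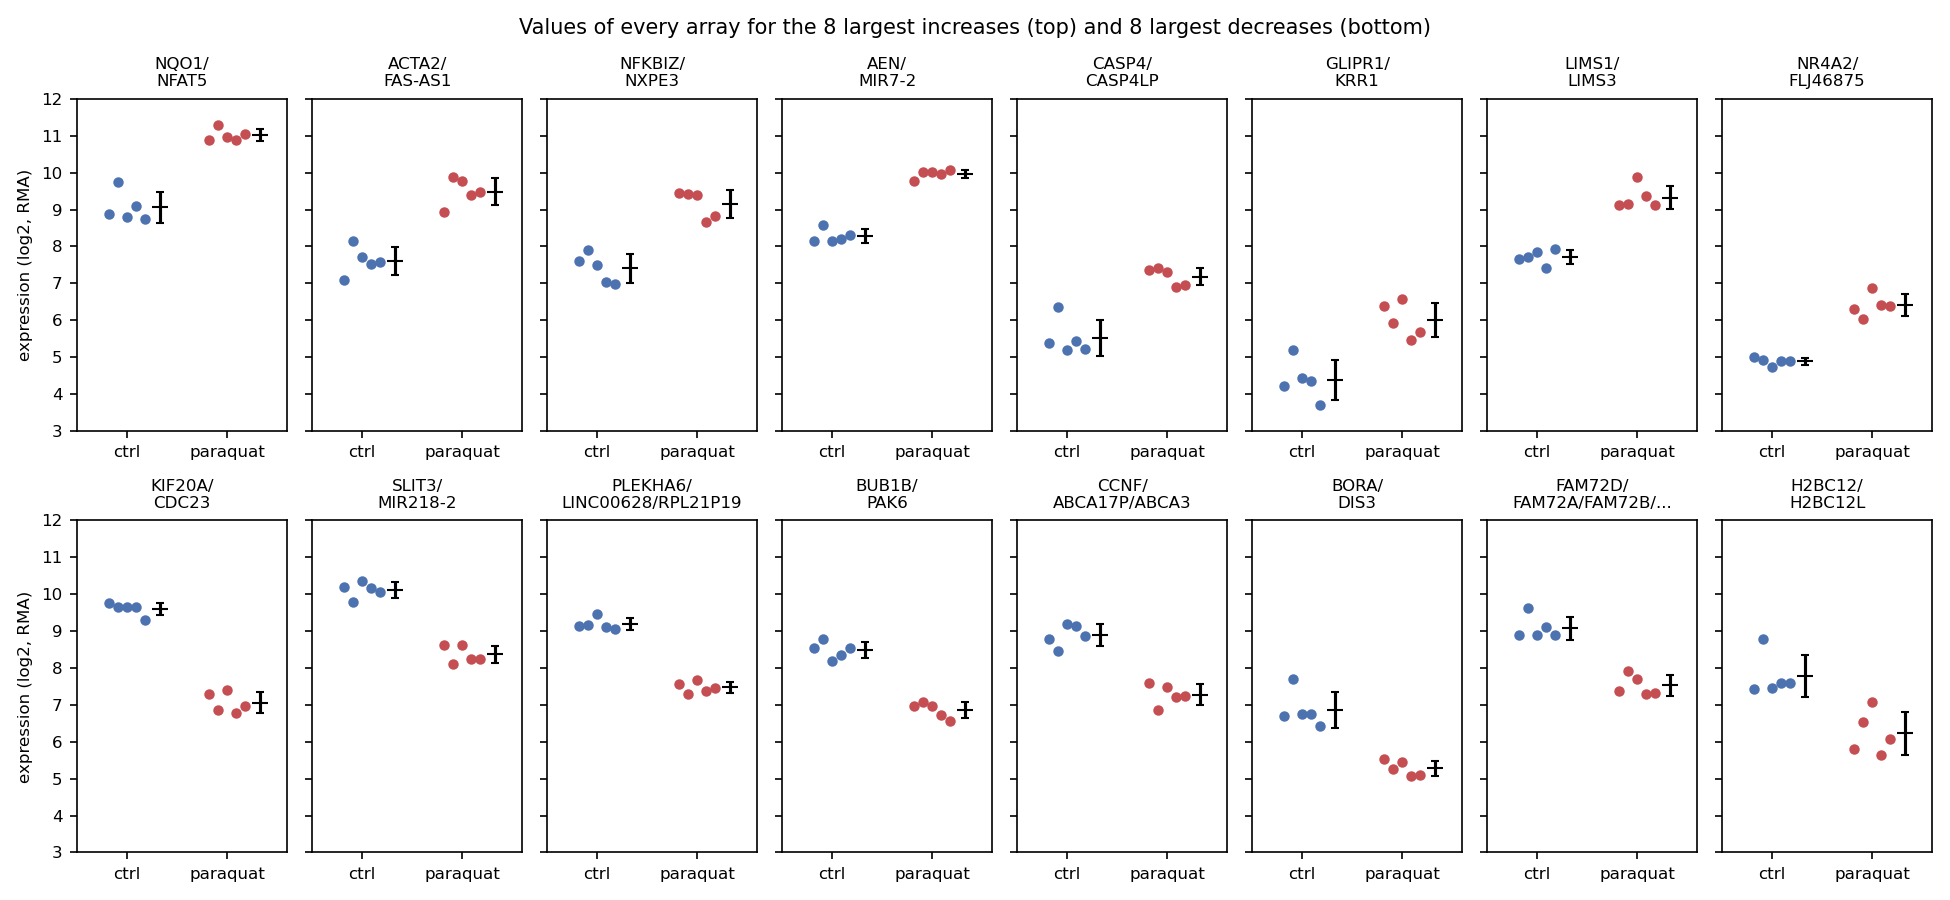
Log2 expression of every array (points; ctrl in blue, paraquat in red) and the group mean ± SD (bars, n = 5) for the 8 several-symbol rows with the largest increases (top) and the 8 with the largest decreases (bottom) among rows whose groups do not overlap. NQO1/NFAT5 moved from 8.74 to 9.76 in ctrl to 10.88 to 11.28 in paraquat, and KIF20A/CDC23 from 9.31 to 9.75 to 6.78 to 7.41.

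Among rows whose groups do not overlap, 4 of the 8 largest decreases were in rows headed by a mitotic gene or cyclin F, and they are given first. KIF20A/CDC23 lists a kinesin of cytokinesis and a subunit of the anaphase-promoting complex, whose genes overlap. For KIF20A/CDC23, ctrl gave 9.75, 9.64, 9.65, 9.64 and 9.31, and paraquat gave 7.30, 6.85, 7.41, 6.78 and 6.96. The groups were far apart, with a change of -2.54 ± 0.14, adjusted p = 7.2e-07, while the row of CDC23 alone changed by 0.01 ± 0.14. BUB1B/PAK6 lists a kinase of the spindle checkpoint and a p21-activated kinase. Values for BUB1B/PAK6 were 8.54, 8.78, 8.18, 8.36 and 8.54 without and 6.97, 7.06, 6.97, 6.73 and 6.56 with paraquat. The groups did not overlap, the change was -1.62 ± 0.13, adjusted p = 1.11e-05, and the row of PAK6 alone changed by 0.02 ± 0.08.

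CCNF/ABCA17P/ABCA3 lists cyclin F with a lipid transporter and a pseudogene of its family. The ctrl arrays of CCNF/ABCA17P/ABCA3 read 8.79, 8.46, 9.19, 9.13 and 8.87 and the paraquat arrays 7.59, 6.86, 7.48, 7.22 and 7.23. All paraquat arrays were below all ctrl arrays (-1.61 ± 0.17, adjusted p = 6.33e-05), and ABCA3 fell by less in its own row (-0.59 ± 0.14). BORA/DIS3 lists BORA, an activator of the mitotic kinases Aurora A and PLK1, and DIS3, a ribonuclease of the RNA exosome. In BORA/DIS3 the values were 6.68, 7.70, 6.75, 6.74 and 6.44 in ctrl and 5.53, 5.26, 5.44, 5.08 and 5.10 in paraquat. The change was -1.58 ± 0.21, adjusted p = 0.000354, with ctrl 11 standing above the other ctrl arrays. The remaining rows of these 8 were SLIT3/MIR218-2, PLEKHA6/LINC00628/RPL21P19 (-1.70 ± 0.10), FAM72D/FAM72A/FAM72B/FAM72C (-1.55 ± 0.17) and H2BC12/H2BC12L (-1.55 ± 0.32). TMSB15A/TMSB15B, with thymosins that bind actin, was at -1.73 ± 0.52, adjusted p = 0.0381, but its groups overlapped and, of the 10 fits with an array left out, it kept the call in those without ctrl 13 or paraquat 12.

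A list of 1388 genes of stress, cell cycle and neuronal function, in 13 groups, met 227 of the rows. Of these 28 rose and 44 fell (31.7%, against 20.0% of all rows). The lists were chosen with earlier results of these data known. The listed rows were also brighter, with a median level of 7.43 against 6.87 over all rows. Among all rows outside the dimmest 33.3%, 26.5% were called. The part of the choice and of the level in the share of listed rows was not tested. Of 110 stress rows, 22 rose and 10 fell (29.1%), with a median log2 change of 0.09. Of 68 cell cycle rows, 4 rose and 27 fell (45.6%), with a median of -0.29. Of 50 neuronal rows, 2 rose and 8 fell, with a median of -0.02, and their share called (20.0%) was that of the whole table. Without ctrl 11 and paraquat 12 the counts were 24 and 10 for stress, 5 and 24 for cell cycle, and 2 and 8 for neuronal rows. For the counts of each group below, the shares over all rows are 8.51% that rose and 11.5% that fell. These shares hold for adjusted p under 0.05. No share over all rows was counted at an unadjusted p under 0.05, so counts given at that looser threshold have none to be set against.

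**Figure D2:**
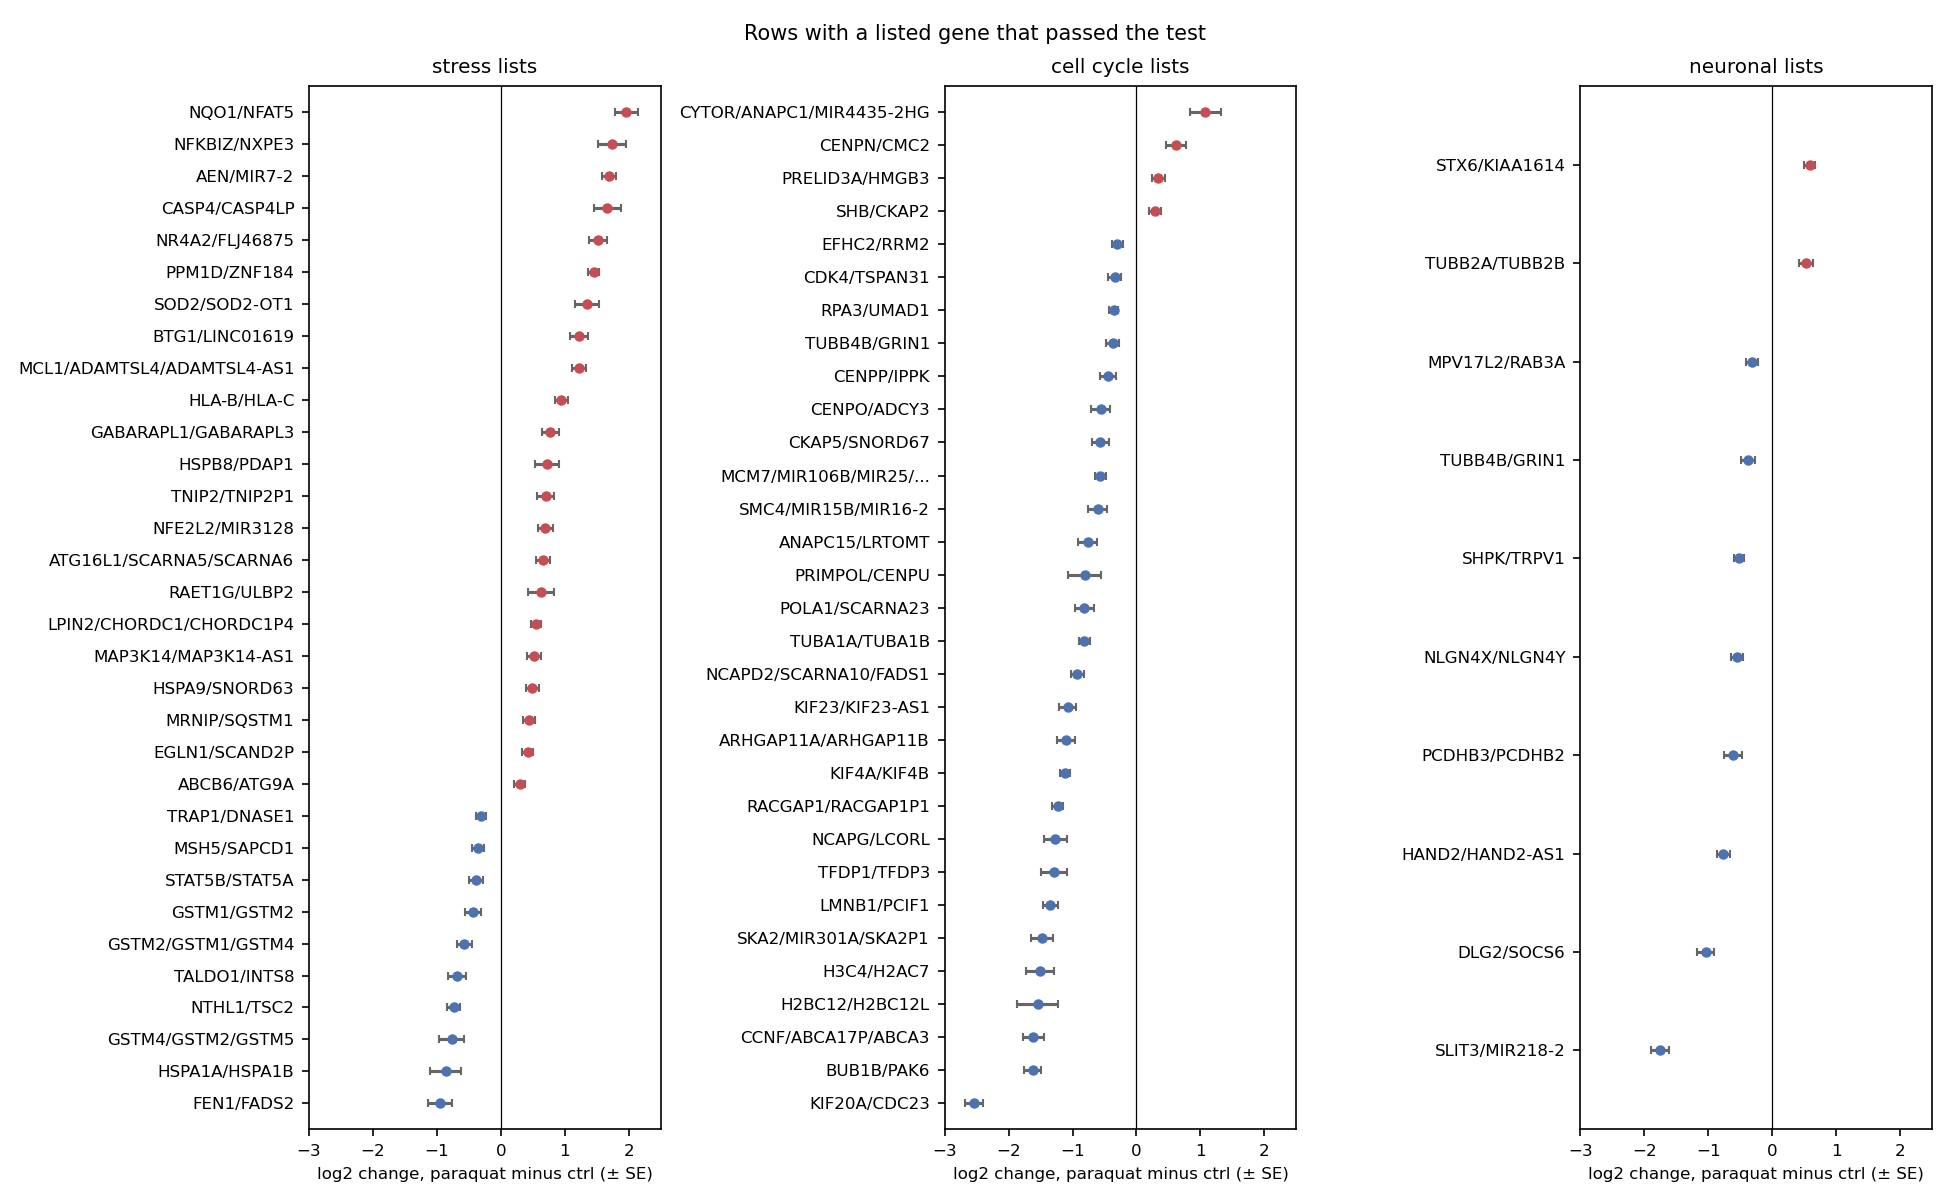
Log2 change (paraquat minus ctrl, points) with its standard error (bars) for each row holding a gene of the stress, cell cycle or neuronal lists that passed the test, increases in red and decreases in blue. Among stress rows 22 rose and 10 fell, among cell cycle rows 4 rose and 27 fell, and among neuronal rows 2 rose and 8 fell.

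The NRF2 pathway answers oxidants: NRF2, encoded by NFE2L2, enters the nucleus and drives genes of quinone reduction, glutathione and NADPH supply. Of 29 rows with genes of this pathway, 4 rose and 4 fell, with a median of 0.05. Besides NQO1/NFAT5, the row of the factor itself, NFE2L2/MIR3128, rose. Its ctrl arrays read 9.74 to 10.32 and its paraquat arrays 10.56 to 11.01. The groups did not overlap (0.69 ± 0.12, adjusted p = 0.00204). SOD2/SOD2-OT1, which lists the mitochondrial superoxide dismutase, rose by 1.34 ± 0.19. Its mean was 8.97 ± 0.42 in ctrl and 10.32 ± 0.19 in paraquat (SD, n = 5). The lowest paraquat array was above the highest ctrl array, ctrl 11. The fourth row was MRNIP/SQSTM1, at 0.44 ± 0.10, a second cluster of the genes of 1 of those set aside.

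The rows that fell in this group were 3 of glutathione S-transferases of the mu class and TALDO1/INTS8. GSTM4/GSTM2/GSTM5 changed by -0.77 ± 0.20, adjusted p = 0.0178, GSTM2/GSTM1/GSTM4 by -0.57 ± 0.12 and GSTM1/GSTM2 by -0.44 ± 0.12, the last losing the call without ctrl 7, 11 or 13 or paraquat 8 or 20. These 3 rows share symbols and the genes share sequence, so they are not 3 separate observations. TALDO1, the transaldolase of the pentose phosphate pathway, is listed with INTS8, a gene of another chromosome, and the row changed by -0.69 ± 0.14. INTS8 changed by -0.27 ± 0.11 in its own row. NQO2/HTATSF1P2 (0.05 ± 0.16, adjusted p = 0.879) and TRIM16/TRIM16L (0.47 ± 0.16, adjusted p = 0.0635) did not pass. The second passed without paraquat 12, its lowest paraquat array.

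Of 21 rows with genes of the p53 response, DNA repair and cell death, 5 rose and 3 fell, with a median of 0.03. PPM1D/ZNF184, which lists WIP1, a phosphatase induced by p53 that dampens the damage response, rose most evenly. For PPM1D/ZNF184, ctrl gave 9.06, 9.29, 9.02, 9.09 and 8.88, and paraquat gave 10.49, 10.48, 10.55, 10.60 and 10.49. The paraquat arrays lay close together and above every ctrl array (1.45 ± 0.09, adjusted p = 1.37e-06). MCL1/ADAMTSL4/ADAMTSL4-AS1 lists MCL1, a short-lived survival protein of the BCL2 family. Values for MCL1/ADAMTSL4/ADAMTSL4-AS1 were 11.05, 10.99, 10.89, 10.70 and 10.74 without and 12.04, 11.97, 12.35, 11.98 and 12.11 with paraquat. The change was 1.22 ± 0.10, adjusted p = 1.72e-05, without overlap. BTG1/LINC01619, with the antiproliferative gene BTG1, rose by 1.22 ± 0.14. The rows that fell were of repair and replication genes: FEN1/FADS2 (-0.95 ± 0.19), with the flap endonuclease, NTHL1/TSC2 (-0.74 ± 0.10), with a glycosylase of base excision repair, and MSH5/SAPCD1 (-0.35 ± 0.09). In their own rows FADS2, a fatty acid desaturase, fell (-0.62 ± 0.17) and TSC2, an inhibitor of mTOR signalling, changed by -0.03 ± 0.20. XRCC5/LINC01963 (-0.28 ± 0.10, adjusted p = 0.0806) and XRCC1/IRGQ (0.07 ± 0.12, adjusted p = 0.755) did not pass.

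Of 17 rows with genes of NF-kB signalling and inflammation, 4 rose and 1 fell, with a median of 0.12. HLA-B/HLA-C, which lists classical antigen-presenting molecules, rose. The ctrl arrays of HLA-B/HLA-C read 7.79, 7.91, 8.07, 7.88 and 7.94 and the paraquat arrays 8.82, 9.16, 8.88, 8.63 and 8.82. Every paraquat array was above every ctrl array (0.94 ± 0.10, adjusted p = 9.54e-05). TNIP2/TNIP2P1, with an inhibitor of NF-kB activation, rose by 0.70 ± 0.13. RAET1G/ULBP2, with ligands of the NKG2D receptor, changed by 0.63 ± 0.20, adjusted p = 0.0471, but all its ctrl arrays were below 4.18 and it lost the call when any array except ctrl 11 was left out. STAT5B/STAT5A fell by 0.39 ± 0.11, and not past the threshold without ctrl 13, 17 or 19 or paraquat 12, nor with quantile normalization or median centring. The interferon-related rows IFITM2/IFITM3 (0.11 ± 0.13) and BCL2L12/IRF3 (-0.22 ± 0.13) did not pass. Of 6 rows with immediate early and kinase genes, NR4A2/FLJ46875 and MAP3K14/MAP3K14-AS1 (0.52 ± 0.11) rose, MAP3K14 being the kinase NIK of noncanonical NF-kB signalling. The median of these rows was 0.21, 3 were higher and 0 lower at an unadjusted p under 0.05 in limma, and the kinase rows MAP2K1/SNAPC5 (0.10 ± 0.11) and MAP2K4/DYNLT1/MAP2K4P1 (-0.07 ± 0.11) did not pass.

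Of 15 rows with heat shock and chaperone genes, 3 rose and 2 fell, with a median of 0.01. HSPB8/PDAP1, with a small heat shock protein, changed by 0.72 ± 0.18, LPIN2/CHORDC1/CHORDC1P4, with a cochaperone of HSP90, by 0.55 ± 0.08, and HSPA9/SNORD63, with the mitochondrial HSP70, by 0.49 ± 0.10. TRAP1/DNASE1, with the mitochondrial HSP90, fell by 0.31 ± 0.08, a call lost without ctrl 17, with quantile normalization and with median centring. HSPA1A/HSPA1B lists the stress-induced HSP70 genes, near-identical neighbours. In HSPA1A/HSPA1B the values were 9.23, 9.81, 8.77, 9.05 and 9.42 in ctrl and 7.61, 8.93, 8.44, 8.34 and 8.64 in paraquat. The groups overlapped, the change was -0.86 ± 0.25, adjusted p = 0.0297, and the call was lost without ctrl 7, 11 or 19 or paraquat 14 or 18. The mirrored row, HSPA1B/HSPA1A, read 9.10, 8.98, 9.24, 9.14 and 9.25 in ctrl and 8.02, 8.73, 8.55, 9.10 and 9.30 in paraquat and changed by -0.40 ± 0.20, adjusted p = 0.217. HSP90AB1/HSP90AB3P (-0.05 ± 0.10, adjusted p = 0.804) and TCP1/SNORA20/SNORA29, with a chaperonin subunit (-0.21 ± 0.08, adjusted p = 0.0832), both abundant, did not pass. None of the 7 rows with genes of ATF4 and endoplasmic reticulum stress passed in limma, 0 of them also at an unadjusted p under 0.05. Examples are HSP90B1/HSP90B3P (-0.04 ± 0.10, adjusted p = 0.844) and PSPH/NUPR2 (0.13 ± 0.09, adjusted p = 0.381).

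The promoters of HSPA1A and HSPA1B are printed because they are alike: 235 of 251 aligned positions before their starts were the same (93.6%). The probes cover exons, and the likeness of the exons was not computed. The 120 bases before each RefSeq start (GRCh38.p14, plus strand) follow, with the heat shock element pattern GAANNTTC in capitals. That pattern, which reads the same on both strands, occurs in 5.78% of the 250 bases before each start in the table of 35116 promoters.
HSPA1A (chr6:31815423-31815542): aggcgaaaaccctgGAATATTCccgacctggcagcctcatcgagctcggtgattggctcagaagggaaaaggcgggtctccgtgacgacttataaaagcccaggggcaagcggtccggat
HSPA1B (chr6:31827618-31827737): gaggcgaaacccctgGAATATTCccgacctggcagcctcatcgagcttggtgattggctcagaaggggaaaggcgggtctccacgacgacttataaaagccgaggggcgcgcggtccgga

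Of 16 rows with hypoxia and autophagy genes, 4 rose and 1, NTHL1/TSC2, fell, with a median of 0.17. GABARAPL1/GABARAPL3, with an ATG8 protein of the autophagosome membrane, rose. For GABARAPL1/GABARAPL3, ctrl gave 5.51, 5.62, 5.65, 5.33 and 5.35, and paraquat gave 5.81, 6.55, 6.25, 6.40 and 6.30. Every paraquat array exceeded every ctrl array (0.77 ± 0.14, adjusted p = 0.00209). ATG16L1/SCARNA5/SCARNA6, with a scaffold of ATG8 lipidation, rose by 0.67 ± 0.11, and EGLN1/SCAND2P, with the oxygen-sensing hydroxylase PHD2, by 0.42 ± 0.09. SCAND2P, a pseudogene of another chromosome, rose by more in its own row (0.84 ± 0.09). ABCB6/ATG9A was at 0.30 ± 0.08 and lost the call without ctrl 13, 17 or 19 or paraquat 8, 18 or 20. CTSD/IFITM10 (0.16 ± 0.17, adjusted p = 0.604) and FBXO34/ATG14 (0.27 ± 0.14, adjusted p = 0.227) did not pass, whereas the row of ATG14 alone rose (0.57 ± 0.13).

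Cells pass from S phase into mitosis by switching on a set of genes for chromosome condensation, the spindle, its checkpoint and cytokinesis. Of 45 rows with genes of G2 and mitosis, 4 rose and 19 fell, with a median of -0.29. LMNB1/PCIF1, with lamin B1 of the nuclear lamina, fell. Values for LMNB1/PCIF1 were 10.15, 10.35, 10.17, 10.06 and 9.95 without and 8.80, 9.01, 8.97, 8.48 and 8.69 with paraquat. Its groups were well separated (-1.35 ± 0.12, adjusted p = 2.07e-05), and PCIF1, an mRNA cap methyltransferase of another chromosome, changed by -0.21 ± 0.14 in its own row. SKA2/MIR301A/SKA2P1, with a subunit of the complex that ties kinetochores to microtubules, fell as well. The ctrl arrays of SKA2/MIR301A/SKA2P1 read 11.31, 11.21, 11.10, 11.15 and 10.97 and the paraquat arrays 10.28, 9.71, 9.70, 9.29 and 9.35. The lowest ctrl array was above the highest paraquat array (-1.48 ± 0.17, adjusted p = 0.00013). Condensin subunits were in NCAPG/LCORL (-1.27 ± 0.18), NCAPD2/SCARNA10/FADS1 (-0.93 ± 0.10) and SMC4/MIR15B/MIR16-2 (-0.61 ± 0.15), which all fell.

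Rows of the central spindle and cytokinesis fell too. RACGAP1/RACGAP1P1 changed by -1.23 ± 0.08, KIF4A/KIF4B by -1.12 ± 0.08, ARHGAP11A/ARHGAP11B by -1.10 ± 0.14 and KIF23/KIF23-AS1 by -1.08 ± 0.13. In each of these 4 rows all paraquat arrays were below all ctrl arrays. The tubulin row TUBA1A/TUBA1B fell by 0.82 ± 0.09. TUBB4B/GRIN1, with a glutamate receptor subunit listed second, was at -0.37 ± 0.11 and lost the call without ctrl 13 or 17 or paraquat 8 or 14, with quantile normalization and with median centring. The 5 other rows of the group that fell were PRIMPOL/CENPU (-0.81 ± 0.26), ANAPC15/LRTOMT (-0.76 ± 0.15), CKAP5/SNORD67 (-0.57 ± 0.13), CENPO/ADCY3 (-0.56 ± 0.15) and CENPP/IPPK (-0.45 ± 0.13). PRIMPOL/CENPU lost the call without ctrl 7, 13 or 17 or paraquat 8, 12, 18 or 20, CENPP/IPPK without ctrl 7, 11, 17 or 19 or paraquat 8, 18 or 20, and CENPO/ADCY3 without paraquat 20.

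The 4 rows of this group that rose were CYTOR/ANAPC1/MIR4435-2HG (1.07 ± 0.24), CENPN/CMC2 (0.61 ± 0.16), PRELID3A/HMGB3 (0.34 ± 0.10) and SHB/CKAP2 (0.29 ± 0.09); they are named with their values known. With 1 array left out, 2 or 3 rows of the group rose. PRELID3A/HMGB3 lost the call without ctrl 7, 13, 17 or 19 or paraquat 12, 18 or 20, and SHB/CKAP2 without any array except ctrl 13. The other two kept it with each array left out. In 3 of them the cell cycle gene is not the first symbol, and each of those has a row of its own. There ANAPC1, of the anaphase-promoting complex, changed by -0.04 ± 0.14, HMGB3 by -0.69 ± 0.10 and CKAP2, a spindle protein, by -1.07 ± 0.13. HMGB3 and CKAP2 thus fell in their own rows, against increases near the threshold in the rows that list them second.

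The cell cycle homology region, TTTGAA, is a promoter element known from genes switched on late in the cycle. It was searched on both strands in the 250 bases before each RefSeq start. It occurred for 10 of the 18 first symbols with a promoter among the G2 and mitosis rows that fell (55.6%), for 4 of 17 among those that did not pass (23.5%), for 1 of 4 among those that rose, and in 13.3% of all 35116 promoters. TUBB4B, which holds the letters, and CENPO head a row that fell and another that did not pass, and some first symbols, such as PRIMPOL and CMC2, are not the listed gene of their row. Over first symbols that are themselves listed and stand in 1 class, the letters occurred for 8 of 15 among rows that fell and 1 of 8 among those that did not pass. A gene with several starts counts once if any of them holds the letters, whereas the 13.3% is a share of single promoters. A match does not show binding. The letters were absent for KIF20A, SKA2, LMNB1 and ARHGAP11A, whose rows also fell. The 120 bases before the start, all on the plus strand, are given for 4 genes that hold the letters. The rows of these 4 are described above, and the match is in capitals. Its first base is at -23 from the start in BUB1B, -35 in NCAPG, -34 in KIF4A and -55 in KIF23.
BUB1B (chr15:40160949-40161068): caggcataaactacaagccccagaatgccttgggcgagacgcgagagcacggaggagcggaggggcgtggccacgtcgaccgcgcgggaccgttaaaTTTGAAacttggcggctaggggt
NCAPG (chr4:17810859-17810978): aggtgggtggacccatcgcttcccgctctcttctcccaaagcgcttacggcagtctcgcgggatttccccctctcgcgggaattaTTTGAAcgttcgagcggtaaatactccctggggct
KIF4A (chrX:70289984-70290103): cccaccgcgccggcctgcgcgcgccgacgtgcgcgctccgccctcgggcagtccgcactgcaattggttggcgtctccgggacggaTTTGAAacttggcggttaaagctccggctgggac
KIF23 (chr15:69414229-69414348): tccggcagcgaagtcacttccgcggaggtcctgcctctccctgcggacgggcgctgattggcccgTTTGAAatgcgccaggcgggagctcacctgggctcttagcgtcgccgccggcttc

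Of 16 rows with genes of the G1 to S transition and DNA replication, 0 rose and 6 fell, with a median of -0.27; at an unadjusted p under 0.05 in limma, 4 were higher and 7 lower. Increases were called in 3 of these rows with median centring, in 2 with quantile normalization, in 2 without ctrl 11 and paraquat 12, and in 0 to 3 with 1 array left out. TFDP1/TFDP3, with the partner of the E2F factors, fell. In TFDP1/TFDP3 the values were 9.04, 9.29, 9.61, 9.58 and 10.10 in ctrl and 7.93, 8.40, 8.70, 8.24 and 7.93 in paraquat. The groups did not overlap (-1.28 ± 0.21, adjusted p = 0.0012), and TFDP3 changed by 0.09 ± 0.15 in its own dim row. POLA1/SCARNA23, with the catalytic subunit of DNA polymerase alpha, fell by 0.82 ± 0.15. MCM7/MIR106B/MIR25/MIR93, with a subunit of the replicative helicase, fell by less but evenly. For MCM7/MIR106B/MIR25/MIR93, ctrl gave 11.27, 11.13, 11.15, 11.09 and 11.35, and paraquat gave 10.50, 10.64, 10.79, 10.58 and 10.65. The change was -0.57 ± 0.09, adjusted p = 0.000845. RPA3/UMAD1 changed by -0.36 ± 0.07, and CDK4/TSPAN31 (-0.34 ± 0.10) and EFHC2/RRM2 (-0.30 ± 0.08) lost the call in 6 and 5 of the 10 fits with an array left out. PCNA/PCNA-AS1 did not pass (-0.30 ± 0.18, adjusted p = 0.301), with ctrl 11 the highest ctrl array, and nor did CFAP20/TIPIN (0.03 ± 0.14, adjusted p = 0.934).

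Of 7 histone rows, 0 rose and 2 fell in limma, and at an unadjusted p under 0.05 there were 0 higher and 3 lower. H3C4/H2AC7, whose genes overlap in the replication-dependent histone cluster, fell. Values for H3C4/H2AC7 were 8.59, 8.95, 8.15, 8.50 and 7.95 without and 7.49, 7.03, 6.91, 6.44 and 6.75 with paraquat. No paraquat array reached the ctrl arrays (-1.50 ± 0.22, adjusted p = 0.000646). H2BC12/H2BC12L fell by 1.55 ± 0.32, a size to which ctrl 11 adds (8.78, against 7.42 to 7.60 in the other ctrl arrays). H2BC18/H3C13/H2BP1 (0.22 ± 0.17, adjusted p = 0.44) and H3-3B/H3-5 (0.10 ± 0.19, adjusted p = 0.792), which lists genes of the replication-independent histone H3.3 family, did not pass. Histone genes are alike enough for probes to bind several of them.

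Among the neuronal rows the largest change was in SLIT3/MIR218-2. SLIT3 is a secreted axon guidance ligand of the ROBO receptors. The ctrl arrays of SLIT3/MIR218-2 read 10.20, 9.79, 10.36, 10.17 and 10.05 and the paraquat arrays 8.63, 8.12, 8.62, 8.23 and 8.23. All paraquat arrays were lower than all ctrl arrays (-1.75 ± 0.14, adjusted p = 8.87e-06). DLG2/SOCS6 lists DLG2, the postsynaptic scaffold PSD-93, with SOCS6 of another chromosome. In DLG2/SOCS6 the values were 8.00, 8.01, 7.99, 8.10 and 7.81 in ctrl and 7.18, 6.95, 7.26, 6.64 and 6.68 in paraquat. The change was -1.04 ± 0.13, adjusted p = 0.000258. DLG2 fell also in its own row (-1.43 ± 0.22), and SOCS6 changed by -0.15 ± 0.13 in its own.

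HAND2/HAND2-AS1, with a transcription factor of sympathetic neurons, was the 1 row of 4 in the sympathetic group that passed. For HAND2/HAND2-AS1, ctrl gave 10.85, 10.80, 10.85, 10.78 and 10.76, and paraquat gave 10.03, 10.27, 10.17, 9.81 and 9.95. The ctrl arrays lay close together and above every paraquat array, and the change was -0.76 ± 0.09, adjusted p = 0.000232. The antisense transcript HAND2-AS1 fell in a row of its own (-1.51 ± 0.23). The row of DBH, which makes noradrenaline, lists 7 symbols including RPL7A and snoRNAs and did not pass (-0.16 ± 0.23, adjusted p = 0.71). MAPT/MAPT-IT1, with the microtubule protein tau, did not pass either (-0.40 ± 0.14, adjusted p = 0.0684), but passed without ctrl 11. Markers of neuroblast identity with a row of their own gave the context: 8 of 9 were above the median of all rows and 6 fell, and the part of this in the neuronal rows was not tested.

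Of 20 rows with genes of synapse, axon and cytoskeleton, 2 rose and 4 fell, with a median of -0.01. The rows that rose were STX6/KIAA1614 (0.59 ± 0.09), with a syntaxin of the trans-Golgi network, and TUBB2A/TUBB2B (0.53 ± 0.11). TUBB2B, a tubulin of developing neurons, changed by -0.08 ± 0.15 in its own row. MPV17L2/RAB3A, which lists the synaptic vesicle GTPase RAB3A second, was at -0.31 ± 0.09 and lost the call without ctrl 13, 17 or 19 or paraquat 12 or 20, with quantile normalization and with median centring. Of 26 rows with channels, transmitter receptors or clustered protocadherins, 0 rose and 3 fell in limma, with a median of 0.0003. At an unadjusted p under 0.05 in limma, 1 was higher and 4 were lower. SHPK/TRPV1 fell by 0.52 ± 0.08, while TRPV1, the capsaicin receptor, changed by -0.12 ± 0.22 in its own row. A second row with the symbols SHPK/TRPV1 was at 0.07 ± 0.20 and differed from the first. PCDHB3/PCDHB2, with clustered protocadherins of neuronal contacts, fell by 0.61 ± 0.14. The other row that fell was TUBB4B/GRIN1, given above, and GRIN1 changed by -0.04 ± 0.19 in its own row.

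The rows with microRNA symbols whose sequences are printed above were compared within each seed. With microRNAs on chr8 left out, 19 seeds were found in more than 1 row. For several of these seeds no row passed, as for PANK1/MIR107 (-0.01 ± 0.08) and PANK3/MIR103A1 (-0.23 ± 0.11). SLIT3/MIR218-2 fell, whereas SLIT2/MIR218-1, which lists the same mature strand, read 7.81, 7.59, 7.77, 7.65 and 7.47 in ctrl and 8.28, 8.12, 8.75, 7.53 and 7.63 in paraquat and did not pass (0.40 ± 0.21, adjusted p = 0.217). AEN/MIR7-2 rose, whereas HNRNPK/MIR7-1, whose 3p strand has the same seed, fell. MIR7-3HG/MIR7-3, which lists the same 5p strand as MIR7-1, did not pass (0.25 ± 0.13, adjusted p = 0.23). Values for HNRNPK/MIR7-1 were 10.93, 11.01, 10.88, 10.97 and 10.69 without and 10.68, 10.68, 10.50, 10.47 and 10.44 with paraquat. The change of that row, which lists an abundant RNA-binding protein, was -0.34 ± 0.09, adjusted p = 0.0217, and the call was lost without ctrl 17 or paraquat 18 or 20.

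DLEU2/MIR15A/MIR16-1/DLEU2L fell (-1.18 ± 0.22), as did SMC4/MIR15B/MIR16-2. The DLEU2 row is among the dimmest 33.3% of the table by mean level, so the size of its change is uncertain. CTDSP1/MIR26B fell, and its host is a small phosphatase that silences neuronal genes in non-neuronal cells. The ctrl arrays of CTDSP1/MIR26B read 8.93, 8.94, 9.59, 9.21 and 9.02 and the paraquat arrays 8.07, 8.06, 8.38, 7.78 and 7.60. The groups did not overlap (-1.16 ± 0.17, adjusted p = 0.000623). Of its relatives, CTDSP2/MIR26A2 changed by -0.62 ± 0.09 and CTDSPL/MIR26A1 by -0.25 ± 0.12, adjusted p = 0.2, the second without passing. SKA2/MIR301A/SKA2P1 and PPIL2/MIR130B (-0.34 ± 0.09) both fell, the second not past the threshold without ctrl 13 or 17 or paraquat 12, 18 or 20. The row of another cluster with the seed of miR-106b and miR-93, MIR17HG with 6 microRNAs, was at -0.54 ± 0.19 and did not pass. WDR82/MIRLET7G fell (-0.64 ± 0.16), as did HUWE1/MIR98/MIRLET7F2 (-0.57 ± 0.18), which kept the call without ctrl 11 or paraquat 14 and lost it without any other array, with quantile normalization and with median centring. C3orf52/MIR567/GCSAM rose. In C3orf52/MIR567/GCSAM the values were 6.18, 6.56, 6.40, 6.33 and 6.35 in ctrl and 7.27, 7.46, 7.39, 7.35 and 7.30 in paraquat. Its groups did not overlap (0.99 ± 0.09, adjusted p = 2.02e-05), and GCSAM rose by less in its own row (0.39 ± 0.08).

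A gene set can head more than 1 row, which allows a comparison within the arrays. There were 207 pairs of rows with the same symbols, in 189 of which a different symbol came first. The difference between the changes of both rows, tested in limma on the difference within each array with adjustment over the 207 pairs, passed in 51 (24.6%). Neither row was called in 145 pairs, 1 row in 50 and both in 12, of which 10 moved the same way. The difference passed in 28 of 79 pairs with overlapping genes, 7 of 30 with neighbours within 10 kb, 12 of 76 with genes farther apart on a chromosome and 4 of 22 with genes on different chromosomes. It passed in 29 of the 84 pairs whose genes are known to lie on opposite strands.

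The 2 pairs in which both rows passed in opposite directions were THRA/NR1D1 and FANCI/POLG. THRA, a thyroid hormone receptor, and NR1D1, the clock repressor REV-ERB alpha, overlap on opposite strands. In the row that lists THRA first, the ctrl arrays read 8.27, 8.13, 8.54, 8.55 and 8.28 and the paraquat arrays 7.47, 7.27, 7.22, 7.27 and 7.14. In the row that lists NR1D1 first, the ctrl arrays read 6.24, 6.58, 6.97, 6.53 and 7.03 and the paraquat arrays 6.98, 7.14, 7.47, 7.54 and 7.56. The first fell without overlap (-1.08 ± 0.11, adjusted p = 4.4e-05) and the second rose with overlap (0.67 ± 0.17, adjusted p = 0.0179), and the difference was 1.75 ± 0.21 (adjusted p = 0.000134, limma). FANCI/POLG, headed by a gene of crosslink repair, changed by -0.49 ± 0.14, and POLG/FANCI, headed by the mitochondrial DNA polymerase, by 0.26 ± 0.08. Each of these rows lost its call in 7 of the 10 fits with an array left out, FANCI/POLG without ctrl 7, 11, 13 or 17 or paraquat 12, 18 or 20 and POLG/FANCI without ctrl 7, 11, 17 or 19 or paraquat 8, 18 or 20.

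In other pairs 1 row moved and the other did not pass. BORA/DIS3 fell while DIS3/BORA was at 0.10 ± 0.11, a difference of 1.68 ± 0.16 (adjusted p = 6.24e-05, limma), given as the second row named minus the first. NCAPG/LCORL fell while LCORL/NCAPG was at -0.22 ± 0.14, a difference of 1.05 ± 0.12 (adjusted p = 0.000104, limma). RACGAP1/RACGAP1P1 fell while RACGAP1P1/RACGAP1, a row near the dim end of the table, was at -0.18 ± 0.13. CENPN/CMC2, which lists a centromere gene first, rose while CMC2/CENPN was at -0.77 ± 0.36, adjusted p = 0.178. The difference was -1.38 ± 0.34 (adjusted p = 0.0126, limma). In this pair, as in those of BORA and NCAPG, the genes lie on opposite strands. Which gene each row reads was not determined, so such pairs are not repeated readings of 1 gene. The other rows of ULBP2/RAET1G (-0.06 ± 0.12) and PCDHB2/PCDHB3 (-0.02 ± 0.10) also differed from their partners. STAT5A/STAT5B, at 0.27 ± 0.10 and not past the threshold, differed from STAT5B/STAT5A.

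**Figure D3:**
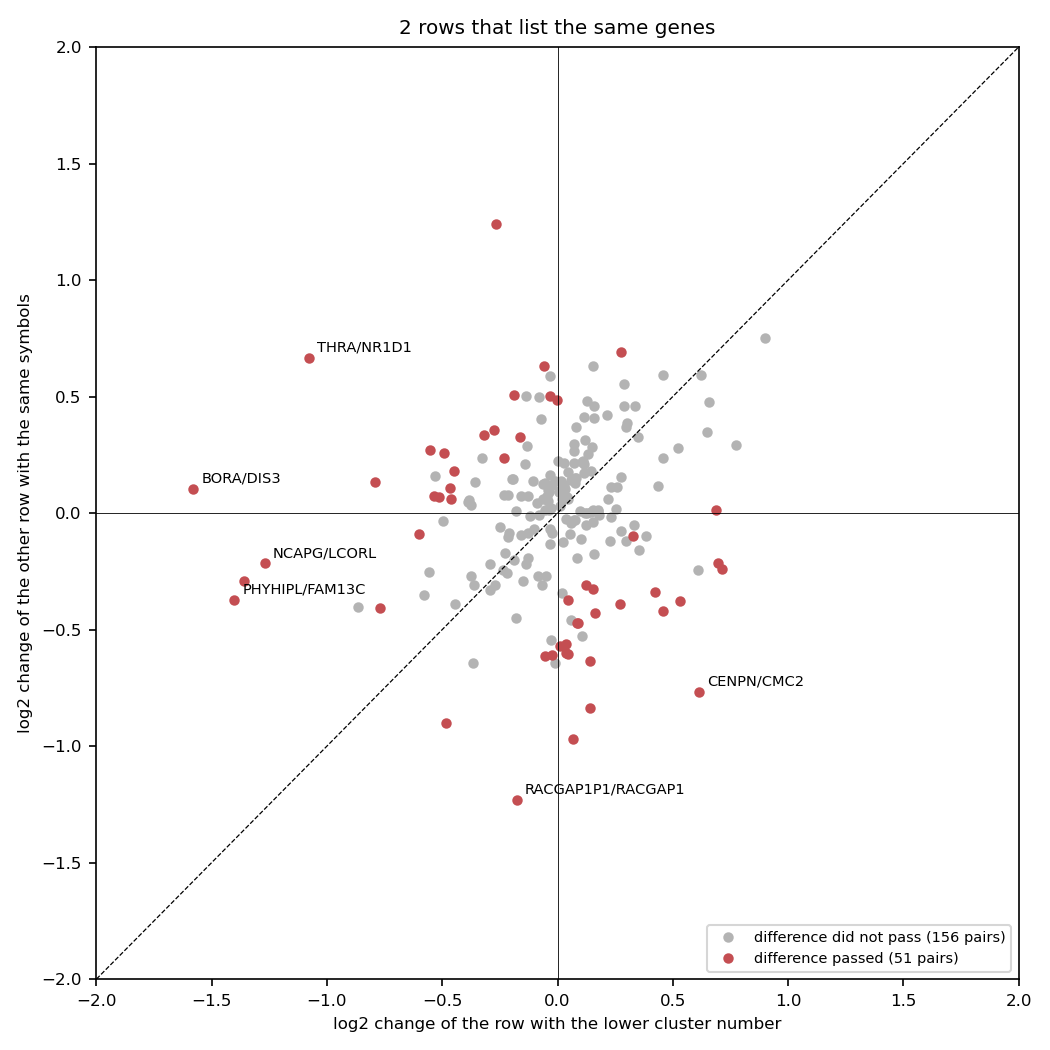
Log2 change of both rows of each of the 207 pairs that list the same symbols, with the row of the lower transcript cluster number on the horizontal axis and the other on the vertical axis; the dashed line marks equal change. The 51 pairs whose difference passed are in red, and THRA/NR1D1 (-1.08 against 0.67) and BORA/DIS3 (-1.58 against 0.10) lie farthest from the line among the pairs named.

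Some genes of the rows also have a row with their symbol alone. For 61 genes listed first, the change of the several-symbol row and of the own row had a Pearson correlation of 0.60 and a Spearman correlation of 0.58 across genes. For 749 listings of a gene in a later place the values were 0.15 and 0.18. These points are genes measured on the same arrays, some counted in several rows, and are not independent. Among first-listed genes both rows passed in 5, all in the same direction, while only the own row passed in 14 and only the several-symbol row in 5. Among later listings both passed in 43, of which 31 agreed in direction and 12 did not, while only the several-symbol row passed in 121 and only the own row in 119.

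**Figure D4:**
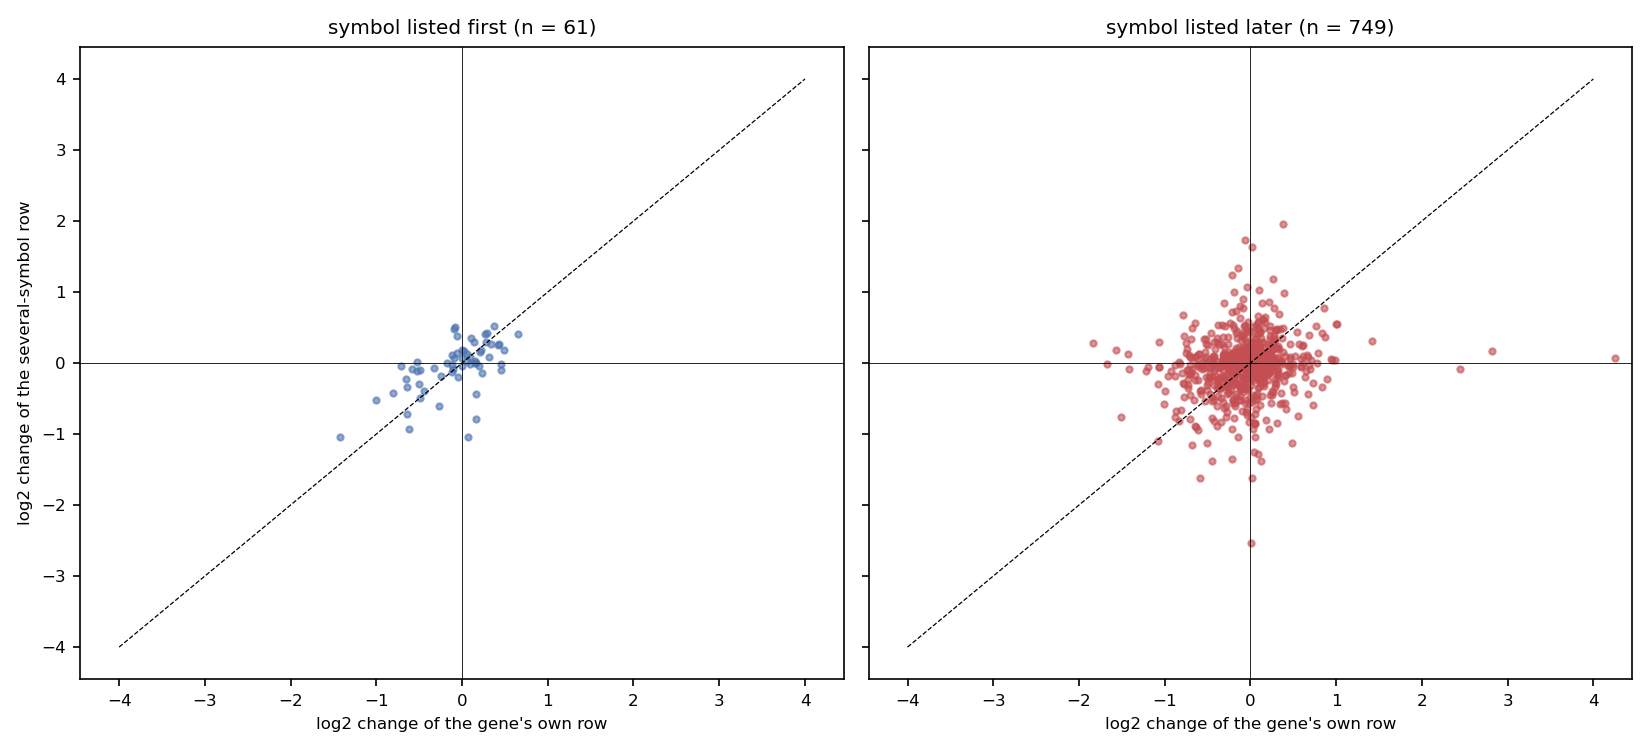
Log2 change of a gene's own row (horizontal axis) and of the several-symbol row that lists it (vertical axis), for 61 genes listed first (left, blue) and 749 later listings (right, red); the dashed line marks equal change. The Pearson correlation is 0.60 on the left and 0.15 on the right, where many points lie along 1 axis.

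Among listed stress, cell cycle and neuronal genes in a later place, 61 listings had an own row, and in 21 only the own row passed. In 10 only the several-symbol row passed, and in 27 neither did. Both passed in the same direction in 1 and in opposite directions in 2. Over all 749 later listings only the own row passed in 119. The examples that follow are from the 21 and were named with their values known. FAS, the death receptor, rose by 2.81 ± 0.13 in its own row, while STAMBPL1/FAS was at 0.17 ± 0.14. SRXN1, the sulfiredoxin of the NRF2 pathway, rose by 2.45 ± 0.12, while SCRT2/SRXN1 was at -0.08 ± 0.16. ULBP1 rose by 4.25 ± 0.42, while ULBP3/ULBP1/RAET1K was at 0.07 ± 0.15. The own row of ULBP1 is among the dimmest 33.3% of the table by mean level, so the size of its change is uncertain. These large increases of single genes had no counterpart past the threshold in the rows that list the genes second.

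The same held for some mitotic genes. AURKA, the Aurora A kinase, fell in its own row (-1.84 ± 0.19), while RAB3GAP2/AURKAP1/AURKA/SNORA36B/MIR664A was at 0.28 ± 0.16. CENPA, the histone of centromeres, fell (-1.57 ± 0.14), while SLC35F6/CENPA was at 0.18 ± 0.14. CDCA3 fell (-1.67 ± 0.12), while GNB3/CDCA3 was at -0.02 ± 0.09. All of these several-symbol rows had overlapping groups.

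The rows were also counted by the place of the listed gene among the symbols, beside the 20.0% called over all rows. Where a cell cycle gene was the first symbol (48 rows), 1 row rose and 25 fell (54.2%), with a median log2 change of -0.45. Where it stood only in a later place (20 rows), 3 rose and 2 fell, with a median of 0.04. Where a stress gene came first (74 rows), 19 rose and 10 fell (39.2%), and where it came later (36 rows), 3 rose (8.3%). Where a neuronal gene came first (36 rows), 2 rose and 5 fell (19.4%), and where it came later (14 rows), 3 fell (21.4%). The difference between the places was not tested, and the median level was also lower in the rows with a later stress gene (5.65 against 7.86) or cell cycle gene (7.14 against 8.21). Without ctrl 11 and paraquat 12 the cell cycle counts were 2 and 22 for the first place and 3 and 2 for later places.

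Array medians over the 2404 rows lay between 6.63 and 6.79. The spread of the rows around their group mean was 0.33 in ctrl 11, as a standard deviation, and at most 0.26 in the other arrays. In 5 lists of marker genes with rows of their own, 0 of 7 glial and 0 of 5 erythroid and endothelial markers were above the median of all rows, against 1 of 7 leukocyte and 6 of 11 epithelial and fibroblast markers. The leukocyte markers CD68 and CD14 rose, while PTPRC, CD3E, LYZ, CSF1R and CD79A did not pass. Group means of PTPRC, CD3E and LYZ lay below 4.18. The part of the leukocyte markers in the changes of the inflammation rows was not tested. In the other lists of this paragraph, LUM of the epithelial and fibroblast markers (-1.53) and FABP7 of the glial markers (-0.55) fell, and no other marker passed.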

How the data were processed

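Expression in SH-SY5Y cells was measured on 10 arrays, 5 ctrl and 5 paraquat. The deposited values are log2 expression of each transcript cluster, made by the authors with RMA according to the submitters' processing notes. RMA corrects background, brings the arrays to a common distribution and summarises probes, and it shrinks changes of dim rows. No software version, filter or genome build is given in the sources used here, and the scale was taken as log2 because the values run from 1.07 to 14.37. Without counts or detection calls, precision rests on the number of arrays, and several-symbol rows had a median standard error of 0.13.

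Each of the 22011 rows was fitted with limma 3.58.1 under R 4.3.3 on the deposited values, with the group as the only term and two-sided moderated tests (8 residual and 3.06 prior degrees of freedom). P-values were adjusted over all rows by the Benjamini-Hochberg method, with 0.05 as the threshold for a call. All adjusted p-values are from limma. The ± of a log2 change is its moderated standard error. The fit was tested on simulated data. Rows and gene symbols were joined through the platform annotation, and 5519 of 5585 symbol entries matched RefSeq (GRCh38.p14) by gene identifier, of which 51 took a newer symbol.

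The rows and gene lists were chosen with earlier results of these data known. Named are, among passing rows whose groups do not overlap, the 8 that rose most and the 8 that fell most, up to 6 passing rows of each list and up to 2 abundant rows that did not pass, and up to 6 passing rows with a microRNA symbol. Other rows, the test of rows with the same symbols, the comparison with own rows, the split by the place of a symbol and the promoter search were added after values were seen. Alternatives were other scalings, variance models, thresholds, filters and arrays left out. Lists were described by counts and medians only.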

Additional observations from a re-analysis of the deposited data

Results flagged for a closer look

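Among 176 groups of 5 arrays, those of the named rows, 13 held 1 array far from the other 4 by Dixon's criterion (critical value 0.71). Chance alone flags about 1 in 20 groups, and 6 of the 13 arrays were ctrl 11, the array with the widest spread around its group.

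The 6 rows in which ctrl 11 stood above the other ctrl arrays were H2BC12/H2BC12L (8.78 against 7.42 to 7.60), CASP4/CASP4LP (6.37 against 5.19 to 5.45), BORA/DIS3 (7.70 against 6.44 to 6.75), PCNA/PCNA-AS1 (11.27 against 10.36 to 10.59), NQO2/HTATSF1P2 (7.72 against 6.94 to 7.07) and HSP90B1/HSP90B3P (12.53 against 12.08 to 12.21). The 3 of them that were called kept the call without ctrl 11.

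Paraquat 12 stood apart in 3 rows. It was the lowest in GSTM4/GSTM2/GSTM5 (6.71 against 7.51 to 7.68) and the highest in EGLN1/SCAND2P (9.04 against 8.84 to 8.89) and MAP2K1/SNAPC5 (8.82 against 8.29 to 8.44). Ctrl 19 was the lowest in KIF20A/CDC23 (9.31 against 9.64 to 9.75) and NHLRC2/ADRB1 (8.82 against 9.05 to 9.14). Ctrl 13 was the highest in PLEKHA6/LINC00628/RPL21P19 (9.46 against 9.05 to 9.16), and ctrl 7 in XRCC5/LINC01963 (11.53 against 11.21 to 11.26).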

How the results depend on the processing

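The groups share no replicate numbers, and the labels do not pair the arrays. Consecutive title numbers, tried as a block, gave 241 several-symbol rows that rose and 342 that fell. Deviations from the group means correlated at 0.09 to 0.46 between arrays with consecutive numbers and at -0.36 to 0.32 between other ctrl and paraquat arrays. Of the 88 named rows, 62 were called, and 53 of these kept the call with each array left out and in every setting except the stricter thresholds; 0 of the 88 reversed. Against a minimum fold of 1.2, 62 several-symbol rows rose and 84 fell, 17 and 24 of the listed rows and 6 and 8 of the microRNA rows. At an adjusted p under 0.01, 98 several-symbol rows rose and 136 fell, and 14 microRNA rows fell. With each array left out, the counts ranged from 147 to 228 (rose) and 194 to 272 (fell) over several-symbol rows, 24 to 32 and 36 to 44 over listed rows, 11 to 13 and 17 to 25 over microRNA rows, and 35 to 49 for pairs of rows that changed differently. Dim rows limit the precision of folds, and the array gives no call of detection.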

Other observations

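Among later-listed genes with a row of their own, 12 had both rows past the threshold in opposite directions, named here with their values known. Besides HMGB3, CKAP2 and FANCI, they include BTG3, an antiproliferative gene, which rose by 0.49 in its own row while CXADR/CXADRP2/BTG3 fell by 1.13, and PMS2CL, which rose by 0.73 while PMS2/PMS2CL, headed by the mismatch repair gene PMS2, fell by 0.59 (log2 changes, limma). The call of PMS2/PMS2CL was lost without ctrl 7 or 17 or paraquat 20, and both it and that of CXADR/CXADRP2/BTG3 without ctrl 11 and paraquat 12 together. ADGRA2 fell by 0.79 while BRF2/ADGRA2 rose by 0.68, and SIAE fell by 0.65 while TBRG1/SIAE rose by 0.56.

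Among pairs of rows with the same symbols, PHYHIPL/FAM13C fell by 1.40 and FAM13C/PHYHIPL by 0.37, and the difference passed. The call of FAM13C/PHYHIPL was lost without ctrl 13 or 19 or paraquat 8, 12 or 20 and with median centring. ARHGEF39/CCDC107 fell by 0.84 while CCDC107/ARHGEF39 was at 0.14 and did not pass. CDPF1/PPARA fell by 0.97 while PPARA/CDPF1, headed by the nuclear receptor of fatty acid oxidation, was at 0.07 and did not pass.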
